A study of Mus musculus with 42 samples.

Results

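Nr5a1, Fezf1, Gpr149 and Nrgn were the 4 genes that stood highest in the ventromedial hypothalamus (VMH) of fed mice over the other hypothalamic nuclei measured, and they were 4 of 37907 Ensembl gene IDs in the table. They were chosen by the smallest of the 3 differences between the mean log2(RPKM + 1) of fed VMH libraries and that of another fed nucleus, where RPKM is the number of reads scaled by transcript length and library depth. The fed values, and the differences between fasted and fed mice that rest on them, are therefore given as a description with no test. The tests between nuclei compare fasted mice only, with the spread of each gene estimated from all 42 libraries. All 4 genes passed the filter on low values, at least 1 RPKM in at least 4 libraries. Nr5a1 passed it through the 12 VMH libraries, with 2 of the 30 other libraries at 1 RPKM or more, whereas 21 of the 30 were for Fezf1, 20 for Gpr149 and 30 for Nrgn.

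The 42 libraries were RNA-seq libraries from adult wild-type male C57/BL6 mice, which had free access to food or had gone without it for 24 hours when the brain was taken. Each held 1 laser-captured nucleus, and the nuclei were the VMH (6 fed, 6 fasted), the arcuate nucleus (ARC; 5 fed, 5 fasted), the dorsomedial hypothalamus (DMH; 5 fed, 4 fasted) and the paraventricular nucleus (PVN; 6 fed, 5 fasted). No allele or agent other than the fast distinguished the groups. The 4 nuclei were cut from the same brains, the labels do not say which libraries share a mouse, and the authors had already removed libraries that stood apart. The capture outlined a region on stained cryosections and so pooled all cell types inside it, the RNA was amplified before sequencing, and fewer cells of a type and less RNA per cell cannot be told apart in such a sample.

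The VMH is a mostly glutamatergic nucleus known for its part in energy balance, glucose counter-regulation and social behaviour. Nr5a1 encodes steroidogenic factor 1 (SF-1), a nuclear receptor that in the brain is made almost solely by VMH neurons and without which the nucleus does not form properly. Fezf1 is a zinc finger transcriptional repressor of the developing forebrain, Gpr149 is an orphan G protein-coupled receptor, and Nrgn encodes neurogranin, a postsynaptic protein that binds calmodulin when calcium is low and is released from it by calcium or by protein kinase C.

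By the GENCODE annotation of GRCm38, all 4 are protein-coding genes on the minus strand. Nr5a1 (ENSMUSG00000026751) lies at chr2:38692656-38714542, Fezf1 (ENSMUSG00000029697) at chr6:23245044-23248362, Gpr149 (ENSMUSG00000043441) at chr3:62529077-62605140 and Nrgn (ENSMUSG00000053310) at chr9:37544492-37552904. Exons of other genes covered 0.0% of the exon length of each, which matters because the reads carry no strand.

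The RefSeq promoter table matched Fezf1 and Nrgn, and their sequence just before the annotated gene start is shown because both genes were high in the same nucleus. Bases are 5′ to 3′ on the minus strand of GRCm38.p6, for Fezf1 from chr6:23248363-23248514 and for Nrgn from chr9:37552905-37552995, and capitals mark matches to any of the letters searched.
Fezf1: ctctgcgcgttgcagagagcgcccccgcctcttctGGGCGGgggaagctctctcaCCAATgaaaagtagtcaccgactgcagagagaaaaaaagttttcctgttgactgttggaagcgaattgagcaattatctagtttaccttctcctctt
Nrgn: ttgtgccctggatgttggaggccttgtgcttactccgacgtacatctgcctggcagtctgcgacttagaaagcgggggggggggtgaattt
Both strands were searched for 5 short motifs, and no match overlapped another in these windows. The 152 bases of Fezf1 held 1 GGGCGG (the GC box), found in 17% of the 32851 promoters in the table over a window of the same length and place. They also held 1 CCAAT (the CCAAT box), found in 20.3%. The TATA box, searched as TATAAA, was in neither window and was in 7.38% of promoters at 152 bases and 4.8% at 91 bases. The SF-1 site, searched first as AAGGTCA, was in neither window and was in 2.53% of promoters at 152 bases and 1.58% at 91 bases. Its other form, searched as AAGGCCA, was also in neither and was in 3.21% and 2% of promoters. The 91 bases of Nrgn held no match, where 12.3% of promoters had a CCAAT box and 9.42% a GC box at that length.

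The depth read back from the values was 1.33 to 13.2 M (megareads) per library. Of the marker lists, the libraries labelled VMH had a summed level of the 5 arcuate markers in the table (Pomc, Agrp, Npy, Ghrh and Tac2) of 23.4 to 71.4 RPKM against 1074 to 2626 RPKM in the ARC, of the 4 PVN markers (Sim1, Avp, Oxt and Crh) of 8.84 to 23.6 RPKM against 4482 to 8517 RPKM in the PVN, and of the 3 DMH markers of 6.54 to 18.7 RPKM against 130 to 218 RPKM in the DMH. Outside their own nucleus the sums reached at most 192 RPKM (arcuate markers), 168 RPKM (PVN markers) and 73.4 RPKM (DMH markers). By the sum, the ARC, PVN and DMH libraries thus each held their own markers at the highest level. Of the DMH markers, Ppp1r17 was at 49.7 ± 5.75 RPKM (SD, n = 4) in fasted DMH and 47.3 ± 13.5 RPKM (SD, n = 5) in fasted PVN. The others, Grp and Npvf, were at 17.75 and 97.8 RPKM in fasted DMH and at 3.35 and 1.43 RPKM in fasted PVN. DMH libraries also held the 2 lateral hypothalamic markers (Hcrt and Pmch) at 269 to 1448 RPKM, against at most 35.3 RPKM in any VMH, ARC or PVN library.

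Nr5a1 was far higher in the VMH than in any library outside it. In fed VMH its lowest, median and highest library values were 7.29, 21.3 and 38.5 RPKM, and in fasted VMH they were 15.4, 25.0 and 28.9 RPKM. The group means were 21.8 ± 10.003 RPKM (SD, n = 6) fed and 23.1 ± 5.35 RPKM (SD, n = 6) fasted. The 2 groups overlapped, and the fed group held both the lowest and the highest of the 12 VMH libraries.

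Outside the VMH, Nr5a1 was at 0.731, 0.389, 0.325, 0.319 and 0.448 RPKM in fed ARC and at 0.233, 0.636, 0.390, 0.319 and 0.352 RPKM in fasted ARC. In the DMH it was at 0.166, 0.456, 0.843, 0.607 and 0.814 RPKM fed and at 1.09, 0.448, 2.15 and 0.605 RPKM fasted. In the PVN the fed libraries ranged from 0.235 to 0.392 RPKM with a median of 0.366 RPKM, and the fasted ones were at 0.217, 0.479, 0.325, 0.366 and 0.495 RPKM. No library outside the VMH reached the lowest VMH library, and the nearest, fasted DMH library 3, was at 2.15 RPKM.

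Most of these low values stood at or near the value of a gene with no read. The table has no zeros because a small count was added to every gene before logs were taken, and such a gene stands at its own floor, which for Nr5a1 was 0.166 to 0.325 RPKM depending on the set of libraries. The whole reads behind all 168 values of the 4 genes could be read back, each within 0.043 of a whole number. Nr5a1 had 1626 reads over the 6 fed VMH libraries and 2119 over the 6 fasted ones, but 7 over the 6 fed PVN libraries, 8 over the 5 fasted PVN libraries and 8 over the 5 fasted ARC libraries.

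In fasted DMH it had 62 reads, 30 of them in library 3 and 17 in library 1. At the depth of each library, 4 of 5 fed ARC, 4 of 5 fasted ARC, 6 of 6 fed PVN and 4 of 5 fasted PVN libraries had no more than 3 Nr5a1 reads. Computed from reads alone, without the added count and without the removal of set means described later, the mean level in fasted PVN was 0.340% of that in fasted VMH, in fasted ARC 0.383% and in fasted DMH 2.69%. The DMH share was 1.39% without library 3, and the ARC share was 0.204% without fasted ARC library 2. The order of the nuclei below the VMH in fasted mice was thus DMH, then ARC and PVN, and DMH was not separated from the other 2 by the test given later.

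Fezf1 had the highest mean RPKM of the 4 genes in the VMH, in a range that overlapped that of Nrgn. Its lowest, median and highest library values were 57.8, 101.4 and 126 RPKM in fed VMH and 66.6, 106.9 and 116 RPKM in fasted VMH. The means were 94.99 ± 29.8 RPKM (SD, n = 6) and 95.7 ± 22.1 RPKM (SD, n = 6). Fed and fasted libraries overlapped over nearly their whole range.

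Outside the VMH, every PVN library held at least 19 reads of Fezf1. In the PVN the fed libraries ran from 1.97 to 9.18 RPKM with a median of 3.64 RPKM, and the fasted ones were at 2.75, 5.88, 5.70, 6.38 and 5.13 RPKM. In the DMH it was at 0.713, 2.28, 1.11, 3.91 and 5.61 RPKM fed and at 3.22, 4.60, 3.56 and 1.41 RPKM fasted. The PVN level, 4.24 ± 2.51 RPKM (SD, n = 6) fed and 5.17 ± 1.42 RPKM (SD, n = 5) fasted, rested on 218 and 239 reads.

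The ARC, which borders the VMH, had the lowest Fezf1 level. The 5 fed libraries were at 0.912, 0.751, 1.68, 0.877 and 1.24 RPKM on 28 reads in all, and the 5 fasted ones at 0.352, 0.669, 0.756, 0.561 and 0.854 RPKM on 8 reads in all, 2 of these libraries having 0 reads. The order of Fezf1 levels was VMH, PVN, DMH and ARC in both nutritional states, and PVN and DMH libraries overlapped in both. DMH and ARC libraries overlapped in fed mice and not in fasted mice.

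Gpr149 had fed VMH values of 20.2, 26.1 and 38.1 RPKM (lowest, median and highest) and fasted VMH values of 14.1, 22.8 and 32.1 RPKM. The means were 27.3 ± 6.09 RPKM (SD, n = 6) and 22.9 ± 7.67 RPKM (SD, n = 6), close to the level of Nr5a1. The highest library was fed and the 2 lowest were fasted, with overlap between.

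In the DMH Gpr149 was at 2.26, 1.63, 3.02, 0.948 and 1.84 RPKM fed and at 3.63, 1.2015, 2.06 and 2.24 RPKM fasted. In the ARC it was at 1.98, 1.23, 1.38, 1.5025 and 1.44 RPKM fed and at 0.284, 1.34, 0.665, 1.44 and 2.25 RPKM fasted. In the PVN it ran from 0.369 to 1.13 RPKM with a median of 0.556 RPKM fed, and was at 0.286, 2.98, 0.523, 1.2011 and 0.643 RPKM fasted. The order was VMH, DMH, ARC and PVN in both states, and neighbours below the VMH overlapped, apart from fed ARC and fed PVN.

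Nrgn was close to Fezf1 in the VMH and had the highest RPKM of the 4 genes in the ARC and the DMH. Its fed VMH libraries were at 69.6, 87.2 and 106 RPKM (lowest, median and highest) and its fasted ones at 56.0, 94.97 and 118 RPKM, with means of 88.9 ± 15.6 RPKM (SD, n = 6) and 89.9 ± 26.2 RPKM (SD, n = 6). The fasted libraries spanned the fed ones on both sides.

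In the DMH Nrgn was at 7.67, 16.3, 17.5, 8.07 and 13.7 RPKM fed and at 12.2, 39.1, 15.8 and 23.5 RPKM fasted. In the ARC it was at 5.32, 12.4, 8.71, 10.4 and 10.7 RPKM fed and at 11.2, 20.2, 11.1, 8.44 and 14.4 RPKM fasted. In the PVN it ran from 1.24 to 9.45 RPKM with a median of 4.60 RPKM fed, and was at 1.79, 6.28, 3.44, 4.04 and 5.96 RPKM fasted. Fasted DMH library 2, at 39.1 RPKM on 231 reads, was the library outside the VMH that came nearest to it, and the lowest VMH library was 1.43 times as high. The order was VMH, DMH, ARC and PVN in both states, and DMH and ARC libraries overlapped.

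From reads alone, the mean Nrgn level in fasted DMH was 21.9% of that in fasted VMH and in fasted ARC 13.5%, whereas Nr5a1 reached 2.69% and 0.383% in the same libraries. The Nrgn share in the DMH was 15.1% without library 2, and that in the ARC was 11.5% without fasted ARC library 2. Fasted DMH library 2 had the highest Nrgn value of its group and 2 reads of Nr5a1. The summed level of 5 forebrain excitatory neuron markers (Slc17a7, Neurod6, Neurod2, Tbr1 and Emx1) was 3.43 to 5.24 RPKM in fasted DMH and 2.69 to 5.46 RPKM in fasted VMH.

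**Figure D1:**
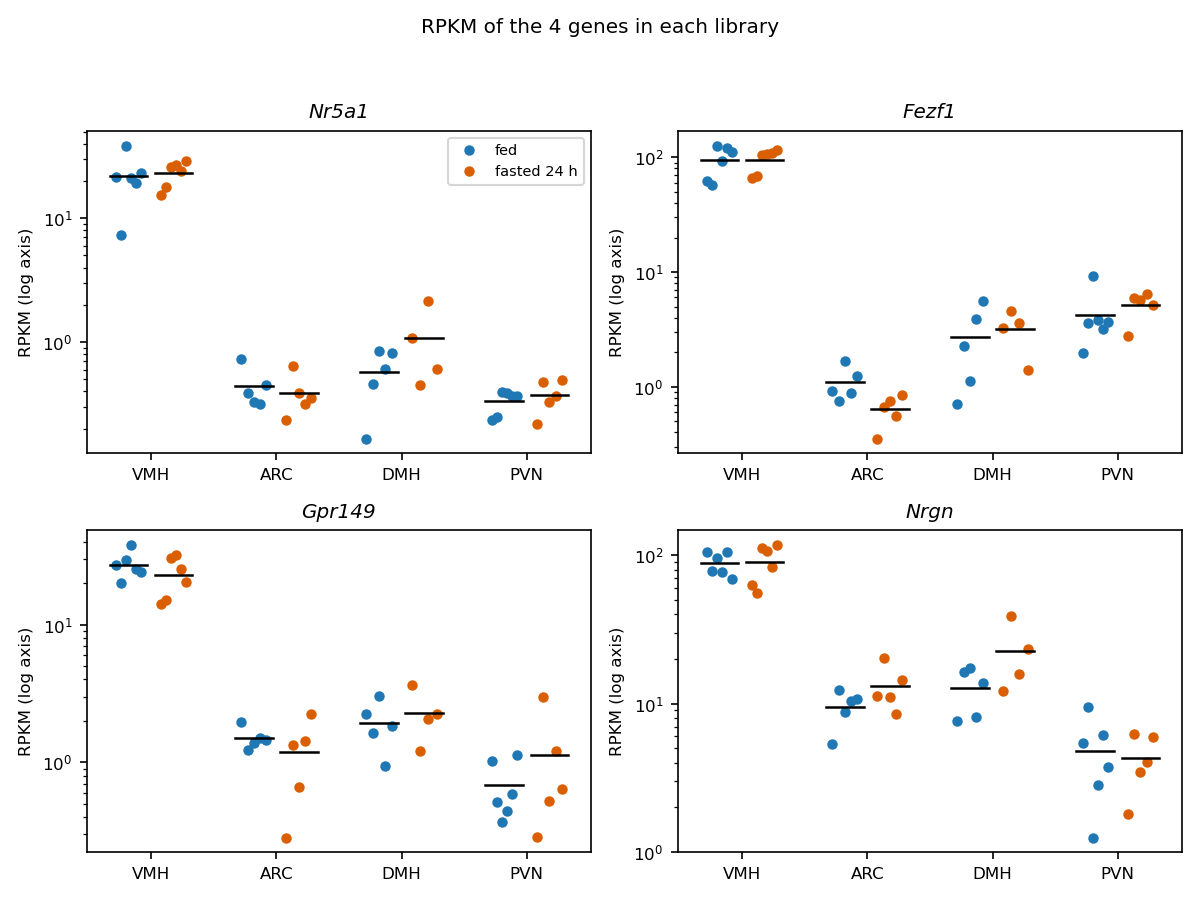
RPKM (vertical log axis) of Nr5a1, Fezf1, Gpr149 and Nrgn in each of the 42 libraries, grouped by nucleus; blue points are fed libraries, orange points libraries of mice fasted for 24 hours, and black lines the group means. VMH libraries of each gene lie above all others, with the smallest gap for Nrgn, where the lowest VMH library is at 56.0 RPKM and the highest other library at 39.1 RPKM.

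In fed libraries the smallest of the 3 differences, on the scale of log2(RPKM + 1), was 4.24 for Fezf1, 3.74 for Nr5a1, 3.28 for Gpr149 and 2.77 for Nrgn. Just outside came Gda, which encodes guanine deaminase, at 2.73. Nrgn and Gda were therefore separated by little, and these fed values carry no test because they chose the genes.

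Fasted mice, whose values the rule did not use, had all 4 genes higher in the VMH than in each other nucleus. The genes were, however, chosen with earlier results of these data known. The comparison used limma on log2(RPKM + 1) with a mean for each of the 8 groups, all 42 libraries sharing the estimate of spread, and Benjamini-Hochberg adjustment over 33579 genes with a threshold of 0.1. Against the ARC 4 of 4 genes were called higher, where 4.27% of all genes tested were. Against the DMH 4 of 4 were called higher, where 1.93% of all genes were, and against the PVN 4 of 4, where 4.5% were. Higher than all 3 was the case for 426 genes, or 1.27%. Nr5a1 is counted in each 4 of 4 although it passed the filter through the VMH libraries, where it is high.

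For Nr5a1 the log2 difference of fasted VMH was 4.10 from the ARC, 3.58 from the DMH and 4.10 from the PVN (limma, largest adjusted p = 9.36e-13). Nr5a1 was among the genes tested only through the VMH libraries, where it is high, so its p-value is not independent of that. The limma p-values of all 4 genes also rest on a spread estimated in part from the fed libraries that chose them. For Fezf1 the differences were 5.86, 4.55 and 3.97 in the same order (limma, largest adjusted p = 1.73e-12). The added count and the pseudocount of 1 RPKM compress these differences most where the other nucleus is near its floor, as for Nr5a1.

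Gpr149 differed by 3.45 from the ARC, 2.85 from the DMH and 3.55 from the PVN on the log2 scale (limma, largest adjusted p = 2.18e-09). Nrgn differed by 2.69, 2.02 and 4.13 (limma, largest adjusted p = 0.000145), the DMH difference having the widest 95% confidence interval, 1.33 to 2.71. In none of the 12 comparisons did the fasted groups overlap, and the share of all genes without overlap was not counted. The exact two-sided permutation test on each gene gave p = 0.00433 against the ARC and the PVN and p = 0.00952 against the DMH, the smallest those group sizes allow.

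Ranked by the smallest of its 3 differences in fasted mice, Fezf1 was 1st, Nr5a1 2nd and Gpr149 3rd of the 33579 genes, at 3.97, 3.58 and 2.85. Nrgn fell to 15th at 2.02, and Gda stood 7th at 2.28. The 2.02 of Nrgn was its difference from fasted DMH, where library 2 stood highest at 39.1 RPKM. Over the processing alternatives listed at the end, that difference ranged from 1.78 to 2.31. The rank of Nrgn without fasted DMH library 2 was not computed. The first 3 positions were the same in both nutritional states, and the fourth was not.

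The other 3 fasted nuclei were then compared with each other. Fezf1 was higher in the PVN than in the ARC by 1.88 on the log2 scale (95% confidence interval 1.26 to 2.50, limma adjusted p = 5.92e-05) and higher in the DMH than in the ARC by 1.302 (0.647 to 1.96, adjusted p = 0.0198). Nrgn was higher in the DMH than in the PVN by 2.11 (1.39 to 2.83, adjusted p = 0.000205) and higher in the ARC than in the PVN by 1.43 (0.757 to 2.11, adjusted p = 0.00736). Of all genes tested, 4.19% were called between ARC and PVN, 3.21% between DMH and ARC and 3% between DMH and PVN.

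No difference among these 3 nuclei was called for Nr5a1 or Gpr149. For Nr5a1 the DMH was above the ARC by 0.52 (0.0199 to 1.02, limma adjusted p = 0.403) and above the PVN by 0.53 (0.0276 to 1.02, adjusted p = 0.385), and without fasted DMH library 3 these differences were 0.29 and 0.30. For Gpr149 the DMH was above the ARC by 0.60 (adjusted p = 0.380) and above the PVN by 0.70 (adjusted p = 0.264). Below the VMH the PVN was second by its mean for Fezf1, though not called against the DMH (DMH minus PVN -0.58, or -0.34 without fasted DMH library 4, limma adjusted p = 0.543 with it), and last for Nrgn.

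**Figure D2:**
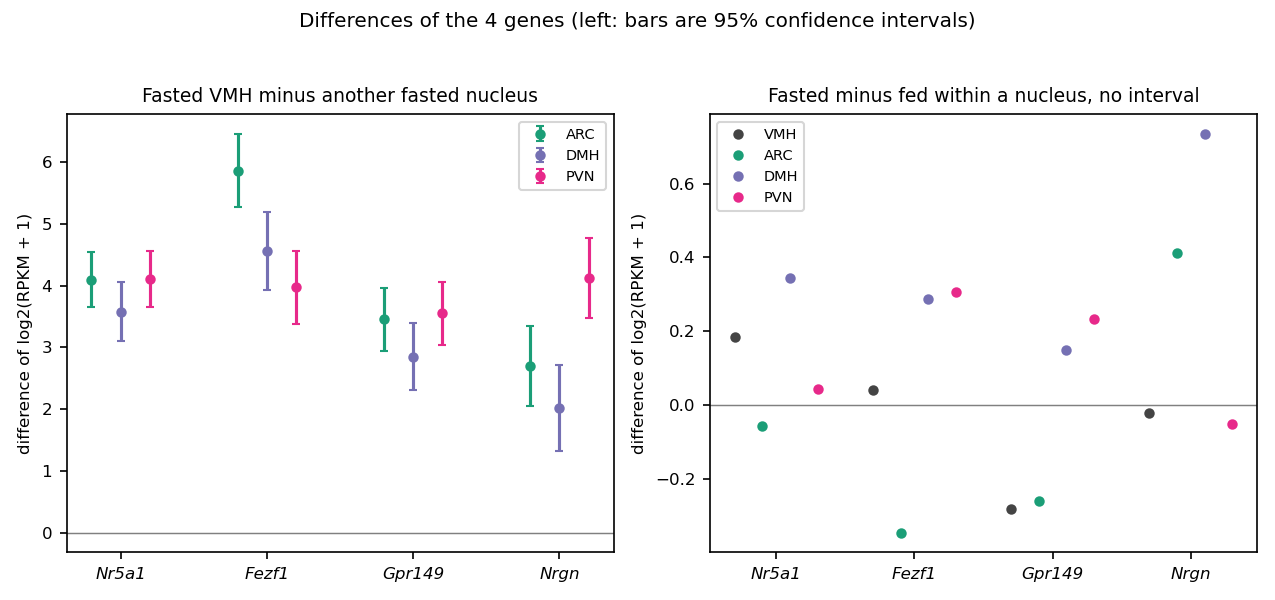
Differences of log2(RPKM + 1) for the 4 genes: on the left, with 95% confidence intervals from limma, fasted VMH minus each other fasted nucleus, on the right, with no interval, fasted minus fed within each nucleus, colours naming the nucleus. On the left every interval lies above 0, the lowest bound being 1.33 for Nrgn against the DMH; on the right the points lie between -0.34 and 0.73.

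How the 4 genes stood after a 24-hour fast was asked in each nucleus. The fed libraries of all 4 nuclei chose the genes, so these differences carry no test and no interval. Fasted and fed libraries overlapped in 16 of 16 comparisons, 4 genes in 4 nuclei, and the share of all genes that overlapped was not counted. In the VMH the difference of the mean log2(RPKM + 1), fasted minus fed, was 0.18 for Nr5a1, 0.04 for Fezf1, -0.28 for Gpr149 and -0.02 for Nrgn.

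Outside the VMH the differences ran from -0.34 for Fezf1 in the ARC to 0.73 for Nrgn in the DMH on that scale. Nrgn in the DMH was at 22.7 ± 11.9 RPKM (SD, n = 4) fasted against 12.7 ± 4.58 RPKM (SD, n = 5) fed, and 3 of the 4 fasted libraries were above the fed mean. Without fasted DMH library 2, at 39.1 RPKM, the difference was 0.44 on the log2 scale.

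The spread of these genes in the VMH differed between the deposited values and the reads behind them. The methods describe capture and library preparation in 3 batches, and the recurring lowest values in the table split the libraries into 3 sets of 10, 16 and 16, which the labels do not name. In the median gene the means of the log2 values of the 3 sets differed from their common mean by at most 5.69e-08, so set means had been subtracted. VMH libraries made up 4 of the 10 in set 1 (40%) but 4 of 16 in each of the others (25%). With no other difference between sets, making set means equal would leave a gene found mostly in the VMH lower in set 1. The no-read value in set 1 was 0.642 times the geometric mean of the 3 sets for Nr5a1, 0.742 times for Fezf1, 0.691 times for Gpr149 and 0.739 times for Nrgn. How much of the difference between sets came from the unequal numbers of VMH libraries was not tested. Values computed from reads alone keep any technical difference between sets.

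The VMH values of Fezf1 differed between sets as deposited. As deposited, the 4 VMH libraries of set 1 were at 61.6 and 57.8 RPKM (fed) and 66.6 and 68.3 RPKM (fasted), and the other 8 were between 92.5 and 126 RPKM. Computed from reads alone, the fasted VMH libraries stood at 89.3, 91.6, 92.4, 94.3, 92.4 and 97.3 RPKM. Their coefficient of variation was 2.90%, against 23.1% as deposited. In fed VMH it was 14.5% against 31.3%.

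Nr5a1 and Gpr149 in fasted VMH likewise had a smaller coefficient of variation from reads, 13.0% against 23.1% and 8.22% against 33.5%. In fed VMH it hardly moved, at 42.7% against 45.9% for Nr5a1 and 23.8% against 22.3% for Gpr149, and for Nrgn it was larger, at 33.7% against 17.6%. From reads, fed VMH library 1 was the highest VMH library for Nr5a1 (33.3 RPKM), Gpr149 (38.7 RPKM) and Nrgn (142 RPKM), while fed VMH library 2 was the lowest for Nr5a1 (11.1 RPKM). The wide spread of Nr5a1 in fed VMH was therefore present in the reads as well, at 145 reads in library 2 against 286 in library 1.

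**Figure D3:**
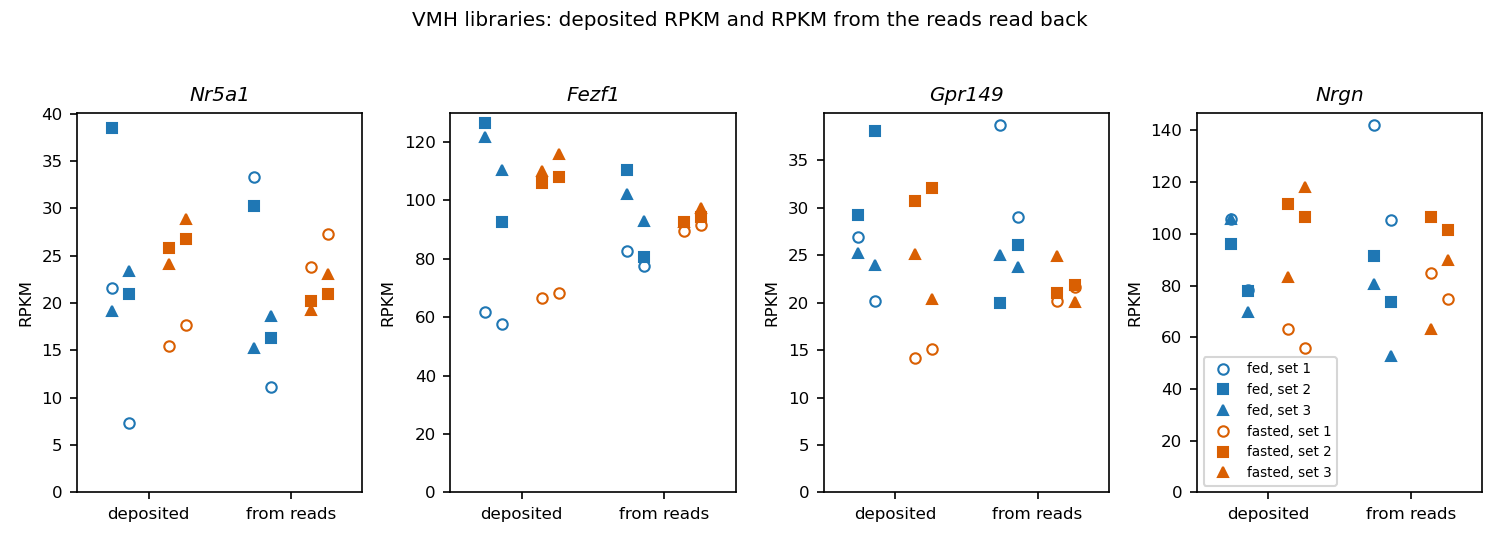
RPKM of the 4 genes in the 12 VMH libraries as deposited (left of each panel) and from the whole reads read back, without the added count and the subtraction of set means (right of each panel); blue is fed, orange fasted, and open circles, squares and triangles mark sets 1, 2 and 3. The open circles of Fezf1 lie at 57.8 to 68.3 RPKM as deposited and at 77.4 to 91.6 RPKM from reads.

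On this scale all 12 differences of fasted VMH from the other fasted nuclei again had no overlap, with log2 differences from 2.28 (Nrgn, DMH) to 6.41 (Fezf1, ARC). The share of all genes without overlap was again not counted. For fasting, which again carries no test, Gpr149 in the VMH was at 21.6 ± 1.78 RPKM (SD, n = 6) fasted and 27.1 ± 6.43 RPKM (SD, n = 6) fed from reads, a log2 difference of -0.29. It was -0.18 without fed VMH library 1 and -0.37 without fed VMH library 3, the least and the most negative values with any 1 of the 12 libraries left out.

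Fezf1 in the ARC had 8 reads over 5 fasted libraries and 28 over 5 fed ones. Its log2 difference was -0.47 from reads and -0.34 as deposited, and with any 1 of the 10 libraries left out the difference from reads was between -0.56 and -0.37. Within the 3 sets the deposited difference ran from -0.50 to -0.27, with 1 fasted and 1 fed ARC library in set 1. Gpr149 in the VMH and Fezf1 in the ARC were picked from the 16 fasting differences after their values were seen, and neither carries a test.

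Other genes known for the VMH gave a mixed picture beside these 4. Their list was drawn up with earlier results of these data known, so its counts are a description. It holds Gda and Adcyap1, which ranked 5th and 6th by the fed rule that chose the 4 genes. In fasted mice 9 of 25 such genes were higher in the VMH than in all 3 other nuclei by limma, against 1.27% of all genes, and 1 was lower than in all 3. Against the ARC 14 were higher and 3 lower with a median log2 difference of 0.71, against the DMH 11 and 2 with a median of 0.54, and against the PVN 13 and 4 with a median of 0.63, where the median over all genes tested was 0 each time. Of all genes tested, 4.64% were lower in the VMH than in the ARC, 2.02% lower than in the DMH and 4.74% lower than in the PVN, beside the shares of higher genes given above. By the smallest of the 3 differences none of the 9 reached Fezf1, Nr5a1 or Gpr149. With fasting in the VMH 0 of the 25 passed the threshold by limma, where 0.131% of all genes tested did, and 4 had an unadjusted p under 0.05, as 2455 of the 33579 genes did.

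Among transcription factors of the list, Sox14 was higher than in all 3 nuclei, with a smallest log2 difference of 0.84 (limma, largest adjusted p = 0.0228), at 6.30 ± 2.29 RPKM (SD, n = 6) in fasted VMH. Nkx2-1, which is needed for the whole ventral hypothalamus, ranged from -0.07 to 3.15 over the 3 nuclei. Vgll2, a transcription cofactor, lay between -0.21 and 0.19.

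Among receptors, Cckbr, the cholecystokinin B receptor, was higher by at least 1.86 (12.5 ± 3.45 RPKM in fasted VMH, SD, n = 6), and Cnr1, the cannabinoid receptor 1, by at least 1.67 (51.4 ± 11.7 RPKM, SD, n = 6). Crhr2, a corticotropin-releasing hormone receptor, was higher by at least 0.67 at a low level of 1.77 ± 0.759 RPKM (SD, n = 6). The oestrogen receptor Esr1 and the leptin receptor Lepr, both well known from the VMH, did not stand above the other nuclei, with differences from -1.80 to -0.08 and from -1.54 to 1.04.

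Among signals, Adcyap1, which encodes the neuropeptide PACAP, was higher by 2.11 to 4.17 and stood at 74.0 ± 16.1 RPKM (SD, n = 6). Dlk1, a secreted and membrane-bound Notch ligand relative, was the gene that was lower in the VMH than in all 3, by 2.27 to 3.07 on the log2 scale, at 17.7 ± 2.65 RPKM (SD, n = 6). Of the rest of the list, Gda was higher by at least 2.28 (76.9 ± 19.8 RPKM, SD, n = 6), Slc17a6, the vesicular glutamate transporter of the hypothalamus, by at least 0.80 (118 ± 23.0 RPKM, SD, n = 6) and Amigo2, an adhesion molecule, by at least 0.71 (69.9 ± 12.7 RPKM, SD, n = 6). All of these passed limma at the adjusted threshold against each of the 3 nuclei.

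Of the genes that SF-1 is known to regulate in the adrenal, gonad and pituitary, 1 of 17 tested was called higher in fasted VMH. It was so against each of the 3 nuclei. Of all genes tested, 4.27% were higher than in the ARC, 1.93% than in the DMH and 4.5% than in the PVN. Higher than in all 3 were 1.27%. A count of 1 of 17 is too small to set the list apart from these shares. Of 19 such genes, 17 passed the filter, Amhr2 did not and Lhb was not analysed here. Nr0b1, which encodes the SF-1 partner and target DAX-1, was higher in fasted VMH by 1.498 to 1.95 (limma, largest adjusted p = 9.72e-05), at 6.23 ± 2.59 RPKM (SD, n = 6). No other gene of the list passed against any nucleus, among them Star (1.54 ± 0.588 RPKM in fasted VMH, SD, n = 6), which moves cholesterol into mitochondria, and Cyp11a1 (0.685 ± 0.142 RPKM in fasted VMH, SD, n = 6), which makes the first steroid from it. Against the ARC 8 of the 17 had an unadjusted p under 0.05 by limma, as 5656 of the 33579 genes did. It was 1 against the DMH and 3 against the PVN, where 4067 and 5544 of all genes did. The median difference over the 17 was 0.03, 0.05 and 0.12 against the ARC, DMH and PVN. Some of these genes stood near their no-read value, which limits what could be called. In fasted ARC Mc2r averaged 0.703 RPKM against an estimated no-read value of 0.671 RPKM, and Akr1b7 0.868 RPKM against 0.855 RPKM.

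Of 15 genes of the calmodulin system in which neurogranin works, 7 were higher in fasted VMH than in all 3 other nuclei by limma, against 1.27% of all genes tested, and 8 were not. Against the ARC 9 were higher (4.27% of all genes) and 1 lower (4.64%), against the DMH 7 higher (1.93%) and 0 lower (2.02%), and against the PVN 11 higher (4.5%) and 0 lower (4.74%). The median log2 differences were 0.43, 0.46 and 0.53, where the median over all genes was 0 each time. This list too was chosen with earlier results of these data known. Among the 7 were Ppp3ca, Ppp3r1 and Ppp3cb (subunits of the phosphatase calcineurin), Camk2a and Camk2b (subunits of calcium/calmodulin kinase II), and Calm2 (calmodulin). Ppp3ca had the largest smallest difference, 1.19, at 102 ± 16.2 RPKM (SD, n = 6), and Calm2, at 1692 ± 106 RPKM (SD, n = 6), differed by at least 0.33. Calm2 has close relatives in coding sequence, so its share of reads is uncertain, and other genes overlap 14.3% of the exon length of Ppp3r1. The gene lower than in the ARC was Pcp4, a small calmodulin-binding protein, with differences from -0.55 to 0.06.

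Some neuron and oligodendrocyte markers were also higher in fasted VMH. Of 4 neuron markers, Snap25 and Rbfox3 were higher in fasted VMH than in all 3 other nuclei by limma, by 0.84 to 1.32 and 0.83 to 1.57, while Syt1 (-0.01 to 0.83) and Stmn2 (-0.14 to 0.45) were not. Of all genes tested, 1.27% were higher than in all 3. The summed level of the 4 was 935 to 1222 RPKM in fasted VMH, above the 443 to 548 RPKM of the ARC, the 637 to 741 RPKM of the DMH and the 624 to 739 RPKM of the PVN, all fasted. Of 4 oligodendrocyte markers, 3 were higher in fasted VMH than in the ARC (4.27% of all genes) and 3 than in the PVN (4.5%), with median log2 differences of 1.17 and 1.22. Against the DMH 0 passed (median 0.47), where 1.93% of all genes were higher, so 0 of the 4 were higher than in all 3 nuclei. Their summed level was 133 to 197 RPKM in fasted VMH, 50.6 to 112 RPKM in the ARC, 89.5 to 144 RPKM in the DMH and 53.5 to 74.9 RPKM in the PVN. The part of neuron and oligodendrocyte content in the differences of the 4 genes and of the calmodulin genes was not tested.

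The 6 genes listed as Fezf family and partner genes (Fezf2, the Groucho co-repressors Tle1 to Tle4, and Hes5) had 0 higher in the VMH and 1, 0 and 2 lower against the ARC, DMH and PVN. Of all genes tested, 4.27%, 1.93% and 4.5% were higher and 4.64%, 2.02% and 4.74% lower in the same order. Fezf2, the close relative of Fezf1, had the opposite bias between VMH and PVN: it was lower in fasted VMH than in fasted PVN by 3.52 on the log2 scale by limma, at 0.874 ± 0.657 RPKM (SD, n = 6) against 21.0 ± 10.54 RPKM (SD, n = 5). The other 2 were Tle3, lower than in the PVN by 1.15 on the log2 scale, and Tle4, lower than in the ARC by 1.02, both picked here after their values were seen.

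**Figure D4:**
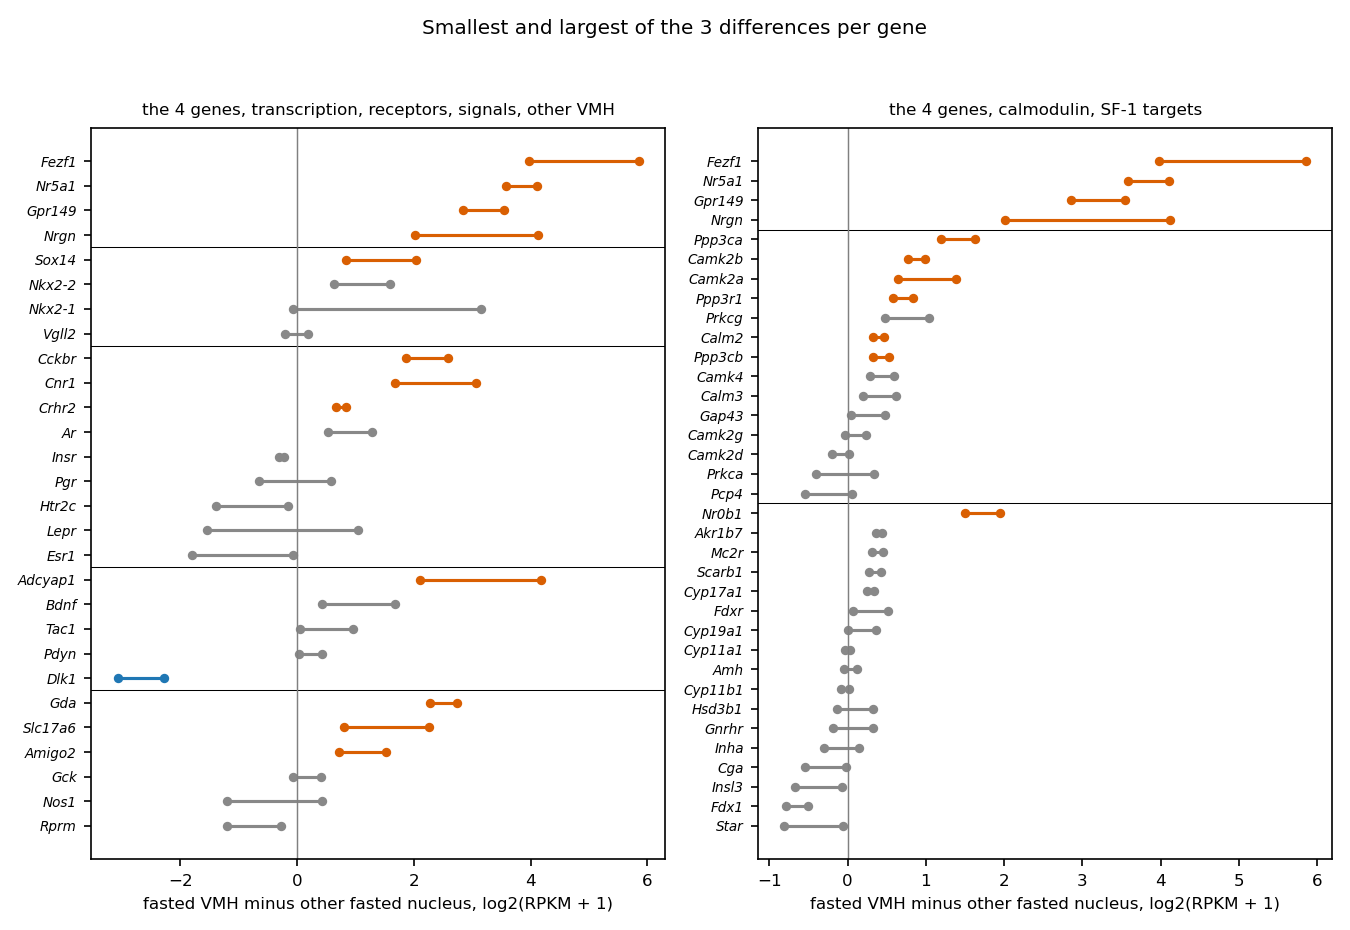
Smallest and largest of the 3 differences (horizontal axis, fasted VMH minus another fasted nucleus, log2(RPKM + 1)) for genes of the lists, with orange for genes higher than all 3 nuclei, blue for the gene lower than all 3 and grey for the rest, by limma at an adjusted p under 0.1. Fezf1, Nr5a1 and Gpr149 lie furthest right by their smallest difference, followed by Gda at 2.28, Adcyap1 at 2.11 and Nrgn at 2.02.

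The genes whose level followed each of the 4 most closely were sought by Pearson correlation of log2(RPKM + 1) over the 42 libraries, among 2795 genes whose group means ranged over at least 1 on that scale. The libraries share mice, depth and the subtraction of set means, and include the fed ones that chose the 4 genes, so the values are descriptions. For Nr5a1 they were Zfp831, a zinc finger protein (r = 0.974), Ppp3ca (0.967), Gpr149 (0.964), Rbfox1, a neuronal splicing factor (0.962), and Rasgrf2, a Ras exchange factor (0.960). Zfp831 was the one with the most similar shape, at 5.84 ± 2.29 RPKM (SD, n = 6) in fed VMH and between 0.210 and 0.669 RPKM on average in the other 6 groups.

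For Fezf1 they were Hspa12a, a relative of heat shock protein 70 (r = 0.961), Snap25, a synaptic vesicle fusion protein (0.960), Rasgrf2 (0.951), Rbfox1 (0.9498) and Ppp3ca (0.949). Snap25 was nonetheless at 314 to 441 RPKM on average outside the VMH, so a high correlation came with a very different ratio between nuclei. For Gpr149 they were Nr5a1 (0.964), Ppp3ca (0.949), Zfp831 (0.947), Myh7, a myosin heavy chain that shares sequence with a near-identical relative (0.944), and Mrtfb, a cofactor of serum response factor (0.943).

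For Nrgn they were Opcml, a cell adhesion molecule (r = 0.947), Itpr1, the inositol trisphosphate receptor 1 (0.945), Camkv, a kinase-like calmodulin-binding protein (0.943), Mrtfb (0.939) and Camk2b (0.928). Camkv was at 106 ± 16.1 RPKM (SD, n = 6) in fed VMH, 21.4 to 29.2 RPKM on average in the ARC and DMH and 12.7 to 13.1 RPKM in the PVN, the same order as Nrgn by those groups. Among the 4 genes themselves, Nr5a1 correlated with Gpr149 at 0.964, with Fezf1 at 0.947 and with Nrgn at 0.889, and the lowest value was that of Fezf1 with Nrgn, 0.780. All 4 were chosen for standing high in fed VMH, so high correlations among them follow in part from the choice.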

How the data were processed

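RNA-seq libraries from 42 laser-captured hypothalamic nuclei were used, and every one of the 42 columns was mapped to a labelled library. The authors deposited 1 table of RPKM values for 37907 Ensembl gene IDs. The submitters' processing notes name CASAVA 1.7, TopHat2 2.0.11, Cufflinks 2.2.1, edgeR and limma with build GRCm38, and the methods state that outlier libraries were removed. The table had no value of 0: a count averaging 5.0 reads (1.46 to 14.5 by library) had been added, and the mean of each of 3 library sets removed. Of the low values, 99.6 to 99.9% came out as whole reads within 0.1 of a read. Depth read back this way was 1.33 to 13.2 M reads (mean 4.57 M), and it limits genes near the no-read value. The correlation of 2 libraries was at most 0.981 and 0 pairs were identical.

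log2(RPKM + 1) was fitted with limma 3.58.1 (R 4.3.3), a mean per group, eBayes with intensity trend, on 33579 genes with at least 1 RPKM in at least 4 libraries, Benjamini-Hochberg threshold 0.1. Fold changes are on that scale and understate those of low genes. Single genes also had exact two-sided permutation tests (SciPy 1.17.1). The limma fit was tested on simulated data, for the difference of fasted from fed VMH only. The methods call the replicates of a nucleus biological replicates. Fasting differences of the 4 genes carry no test, since fed libraries chose the genes. Named were the 4 genes, the next gene by the same rule, the 5 genes most like each, listed genes past the threshold against all 3 fasted nuclei or with fasting in the VMH, and markers beside a result; the other listed genes were picked after their values were seen. The 4 genes and all lists were chosen with earlier results of these data known. GENCODE vM21 and RefSeq gave positions and promoter sequences; Nr5a1 and Gpr149 promoters were not analysed here, and single values of some listed genes are not reported here.

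The labels do not tie libraries to mice, and libraries of 1 number did not deviate together: deviations from group means of the same number in 2 nuclei correlated at -0.131 to 0.0655 over 58 pairs.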

Additional observations from a re-analysis of the deposited data

Results flagged for a closer look

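Among 32 groups (4 genes in 8 groups), in which a library was compared with the rest of its group by Dixon's ratio of gap to range, 1 library stood apart, and chance gives about 1 in 20 groups. Fezf1 in fed PVN library 3 was at 9.18 RPKM, against 1.97 to 3.81 RPKM in the other 5 libraries. It rested on 78 reads against 19 to 37, and from reads alone it was at 7.58 RPKM against 2.18 to 4.39 RPKM. Without it the fed PVN mean was 3.25 RPKM instead of 4.24 RPKM.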

How the results depend on the processing

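All 4 genes stayed higher in fasted VMH than in each other fasted nucleus under every limma alternative run: pseudocounts of 0.1 and 5 RPKM, no filter, a filter of 5 RPKM, median scaling, quantile normalization, only the groups compared, array weights, no trend and leaving out each library (4 and 4 as lowest and highest). The differences between fasted nuclei ranged from 1.78 to 7.03 (log2) with adjusted p of at most 0.0266, and the untested differences with fasting from -0.68 to 0.97. The same held for alternatives added after seeing the data: the set as a covariate, and without 5 libraries under 2.1 M reads. The labels do not tie libraries to mice, so no paired analysis rests on them; the replicate block, within states (correlation -0.0331) or across states, left 4 of 4 genes called against each nucleus. Counts over all genes moved more: for fasting in the VMH 44 became 1 with only its own libraries, 16 with array weights, 17 with the block across states, 24 with the set covariate and 4 without the low-depth libraries, and between VMH and DMH 1324 became 866 with own libraries. The cause was not tested. Depth limits the levels outside the VMH, where Nr5a1 rested on at most 30 reads a library.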
